A study of Rattus norvegicus with 60 samples.

Results

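The genes described here encode the subunits of the 5 protein complexes of oxidative phosphorylation, measured on rat hippocampal RNA with Illumina bead arrays. They were taken by symbol: names beginning Ndufa, Ndufb, Ndufc, Ndufs, Ndufv, Uqcr, Cox4 to Cox8 or Atp5, and the 4 genes Sdha, Sdhb, Sdhc and Sdhd. Of 22523 probes on the array, 66 matched, and they stood for 65 genes once the brightest probe of each gene was kept. Complex I had 28 of these genes, complex II 4, complex III 4, complex IV 11 and complex V 11. The other 7 were kept apart: Ndufaf1, Cox7a2l, Emc8, Dmac2, Dmac2l and Cox6c-ps1, which match by name and are not subunits, and Ndufv3, a complex I subunit gene whose probe the array lists as an Ndufv3-like transcript. The array held no probe by this rule for Ndufa4, Cox4i2, Cox7a1 or Cox7a2.

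The series compared F1-hybrid rats of the Fischer 344 x Brown Norway cross (F344BN) in 3 groups: adults of 12 months, and rats of 24 months labelled as cognitively intact or cognitively impaired. The subregions CA1, CA3 and dentate gyrus (DG) had 4 arrays in each group, and the whole hippocampus had 6 adult, 9 intact and 9 impaired arrays. No treatment or allele was named, and the labels do not say how intact and impaired rats were told apart. The labels tie no array to an animal, so p-values measure the spread between arrays, which may be technical.

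Oxidative phosphorylation passes electrons from NADH through complex I, and from succinate through complex II, to ubiquinone, then through complex III and cytochrome c to complex IV, which reduces oxygen. Complexes I, III and IV pump protons across the inner mitochondrial membrane, and complex V, the ATP synthase, uses their return to make ATP. Neurons depend on this supply to restore ion gradients after synaptic activity, and mitochondrial function is one of the most studied aspects of brain ageing. A few subunits are encoded by mitochondrial DNA, and all genes described here are nuclear.

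A probe counted as measured in a region where its detection p-value was under 0.01 on at least 4 arrays there. By that rule 59 genes were measured in CA1, 59 in CA3, 58 in DG and 60 in whole hippocampus, and 55 were detected on all 60 arrays. No gene passed through the arrays of 1 group alone. No region reached the rule for 5 subunits: Cox8c and Atp5mc3, a c-ring subunit of the ATP synthase, were detected on 0 arrays, and Ndufs6, Cox6a2 and Cox6b1 on 1 array each of 60. Just inside and outside the limit stood Cox8b, detected on 10 of 12 arrays in CA1, 10 in CA3 and 2 in DG, and Cox6c-ps1, detected on 4 arrays in whole hippocampus and on 1 in DG. Values below are background-corrected, normalized log2 signals, and a difference of 1 is a doubling of signal.

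Detection per array ran from 40.6% to 47.2% of probes on 59 arrays and was 22.2% on adult replicate 4 of CA1. The region labels were checked against marker genes. All 3 measured CA1 markers (Wfs1, Fibcd1, Mpped1) were higher in CA1 than in CA3 and DG, both measured CA3 markers (Nectin3, Bok) were highest in CA3, and both DG markers (Prox1, Dsp) were highest in DG, each with an adjusted p under 0.05 in limma. By the detection rule Prox1 and Dsp were not measured in CA1 or CA3, Fibcd1 and Mpped1 not in CA3 or DG, and Nectin3 not in CA1. Where a marker was not measured its reading gives only a bound, and the p-values against it rest on that reading. On adult replicate 4 of CA1 the log2 of the summed signal of the CA1 markers was 7.33, against 10.60, 10.26 and 10.13 on the other adult arrays. Such a sum leans on its brightest markers. The lowest detected signal on adult replicate 4 was 8.07, so its CA1 marker sum lay below detection and gives only a bound. The CA1 markers therefore do not check the label of that array. The CA1 results that rest on it are given with and without it. Each subregion was run on a slide of its own, with impaired, intact and adult arrays in separate blocks of positions. Region and slide, and group and position within a subregion, cannot be told apart.

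The CA1 adult array of low detection set the level of most subunits in its group. Sdha, the flavoprotein subunit of complex II that oxidizes succinate, had log2 signals of 10.94, 11.02 and 10.95 on the first 3 adult arrays and 8.30 on the fourth. Its 4 intact arrays read 10.94, 10.79, 11.06 and 10.79, and its 4 impaired arrays 10.97, 10.90, 11.13 and 11.02. The fourth adult array lay below every other CA1 array, while the remaining 11 overlapped across groups. In the raw signal, before any correction, Sdha read 2195, 3047, 2908 and 107 on the 4 adult arrays.

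Against the mean of the other adult arrays, that array was lower for 41 of the 53 subunits measured in CA1, by more than 1 on the log2 scale for 30 of them. The median deviation was -1.59 for complex I, -2.22 for complex II, -0.49 for complex III, -0.38 for complex IV and -1.25 for complex V. The loss was uneven between genes of 1 complex: deviations ran from -3.08 for Ndufa8, an accessory subunit of complex I, to 1.83 for Atp5pd, a stalk subunit of the ATP synthase. Ndufa10, another accessory subunit of complex I, read 11.76, 11.60 and 11.88 on the first 3 adult arrays and 12.90 on the fourth, the highest in CA1. Of the 53 subunits, 50 were still detected on it.

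Other gene groups moved on the same array. They were measured as the median deviation of a list from its CA1 mean, a different reference from the adult mean used above. By this measure the subunits of complexes I to V stood at -1.19 together, and at -1.36, -2.07, -0.40, -0.38 and -1.03 by complex. Glycolysis stood at -1.84, regulators of mitochondrial biogenesis at -1.38, mitochondrial membranes and import at -0.80 and the tricarboxylic acid cycle at -0.73. The electron carrier and assembly factors stood at -0.09. The 6 measured neuronal markers were at -1.13, the 6 astrocyte markers at -1.30, the 6 oligodendrocyte markers at -0.99 and the 6 microglial markers at -0.01. The 2 measured endothelial markers stood at 0.27 and the 2 measured choroid plexus markers at 1.90, with Flt1, Folr1 and Kl not measured. The log2 of the summed signal of the endothelial markers was 12.33 on that array, the highest in CA1, against 11.72 to 11.93 on the other adults. That of the choroid plexus markers was 9.86, against 10.17, 7.22 and 7.60. Their part in the low subunit values was not tested.

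**Figure D1:**
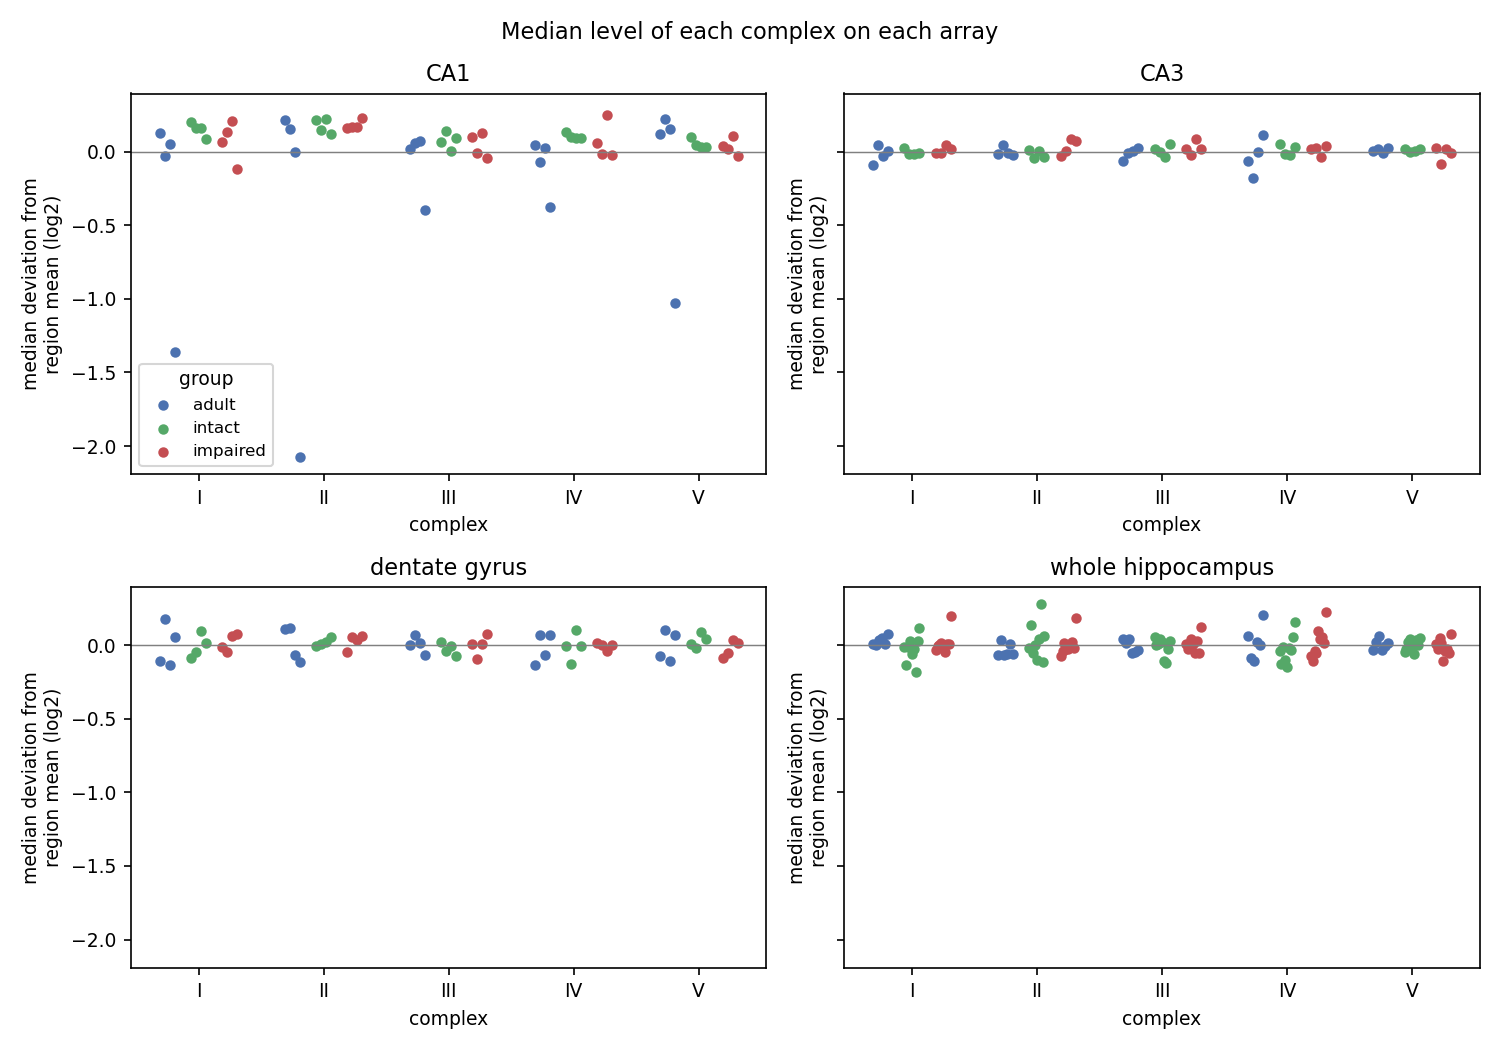
Median level of each complex on each array, as the median over its measured subunits of the log2 deviation from the mean of the region (y axis), by complex (x axis) and group (colour), with 1 panel a region. In CA1 adult replicate 4 stands at -1.36 for complex I and -2.07 for complex II, whereas every CA3 array lies between -0.18 and 0.11 for all 5 complexes.

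Between 24 and 12 months, no subunit of any complex passed the test in any region. The contrast was the mean of intact and impaired arrays minus the adult mean, tested with limma and adjusted by the Benjamini-Hochberg method over all probes of the region, with a threshold of 0.05. In CA1 0 of 59 genes passed, beside 0.0501% of all 9978 probes, and in CA3 0 of 59, beside 0.912% of 9873. In DG 0 of 58 passed, beside 0.0296% of 10152 probes, and in whole hippocampus 0 of 60, beside 0.309% of 10663. At an unadjusted p under 0.05, 2 genes were higher in CA1, 1 was higher and 2 lower in CA3, and none stood there in DG or whole hippocampus. The shares of all probes at that limit were 6.07% in CA1, 13.8% in CA3, 2.42% in DG and 5.64% in whole hippocampus, above those of the members. In bulk tissue, fewer cells of a type and less RNA per cell cannot be told apart.

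Whole hippocampus, with the most arrays, gave the narrowest bounds. All 60 genes had 95% intervals of the aged minus adult difference that stayed within 1.5-fold in either direction, and the widest, for Cox7b of complex IV, reached 1.34-fold. The median difference over subunits was -0.05 for complex I, 0.04 for complex II, 0.01 for complex III, -0.03 for complex IV and -0.01 for complex V, against -0.01 over all probes. In complex I 7 of 27 subunits were above 0, in complex II 4 of 4, in complex III 2 of 4, in complex IV 1 of 8 and in complex V 3 of 10. Over complexes I to V that made 17 of 53, beside 47.7% of all probes above 0. These counts carry no test.

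Core subunits of complex I in whole hippocampus illustrate the size of the spread. Ndufs3, a core subunit of its peripheral arm, ranged from 11.35 to 11.52 in adults with a median of 11.42, from 11.24 to 11.54 in intact with a median of 11.32, and from 11.07 to 11.51 in impaired with a median of 11.35. The groups overlapped, and 15 of 18 aged arrays lay below the adult mean. The difference was -0.11 (SE 0.06, 95% interval -0.24 to 0.02, adjusted p = 0.948 in limma). Ndufv1, which binds NADH and the flavin, differed by -0.09 (interval -0.21 to 0.03), and Ndufs1, the largest iron-sulfur subunit, by -0.04 (interval -0.15 to 0.08).

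The catalytic and core subunits of the other complexes differed by as little between ages. Sdha differed by 0.03 (interval -0.10 to 0.16) and Sdhb, the iron-sulfur subunit of complex II, by 0.07 (interval -0.05 to 0.18). In complex III the core protein Uqcrc1 differed by 0.05 (interval -0.08 to 0.17) and Uqcrfs1, the Rieske iron-sulfur protein, by 0.03 (interval -0.07 to 0.13). In complex IV the difference was 0.02 for Cox4i1 (interval -0.11 to 0.15), the ubiquitous form of a regulatory subunit, -0.03 for Cox5a (interval -0.18 to 0.11), -0.01 for Cox6a1 (interval -0.13 to 0.11) and -0.01 for Cox8a (interval -0.13 to 0.11). In the ATP synthase it was -0.03 for Atp5f1a (interval -0.12 to 0.06), the alpha subunit, -0.02 for Atp5f1b (interval -0.11 to 0.07), the catalytic beta subunit, and -0.01 for Atp5mc1 (interval -0.15 to 0.13), a c-ring subunit. A p that misses the threshold does not show equal levels, and the intervals give the sizes that remain possible.

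**Figure D2:**
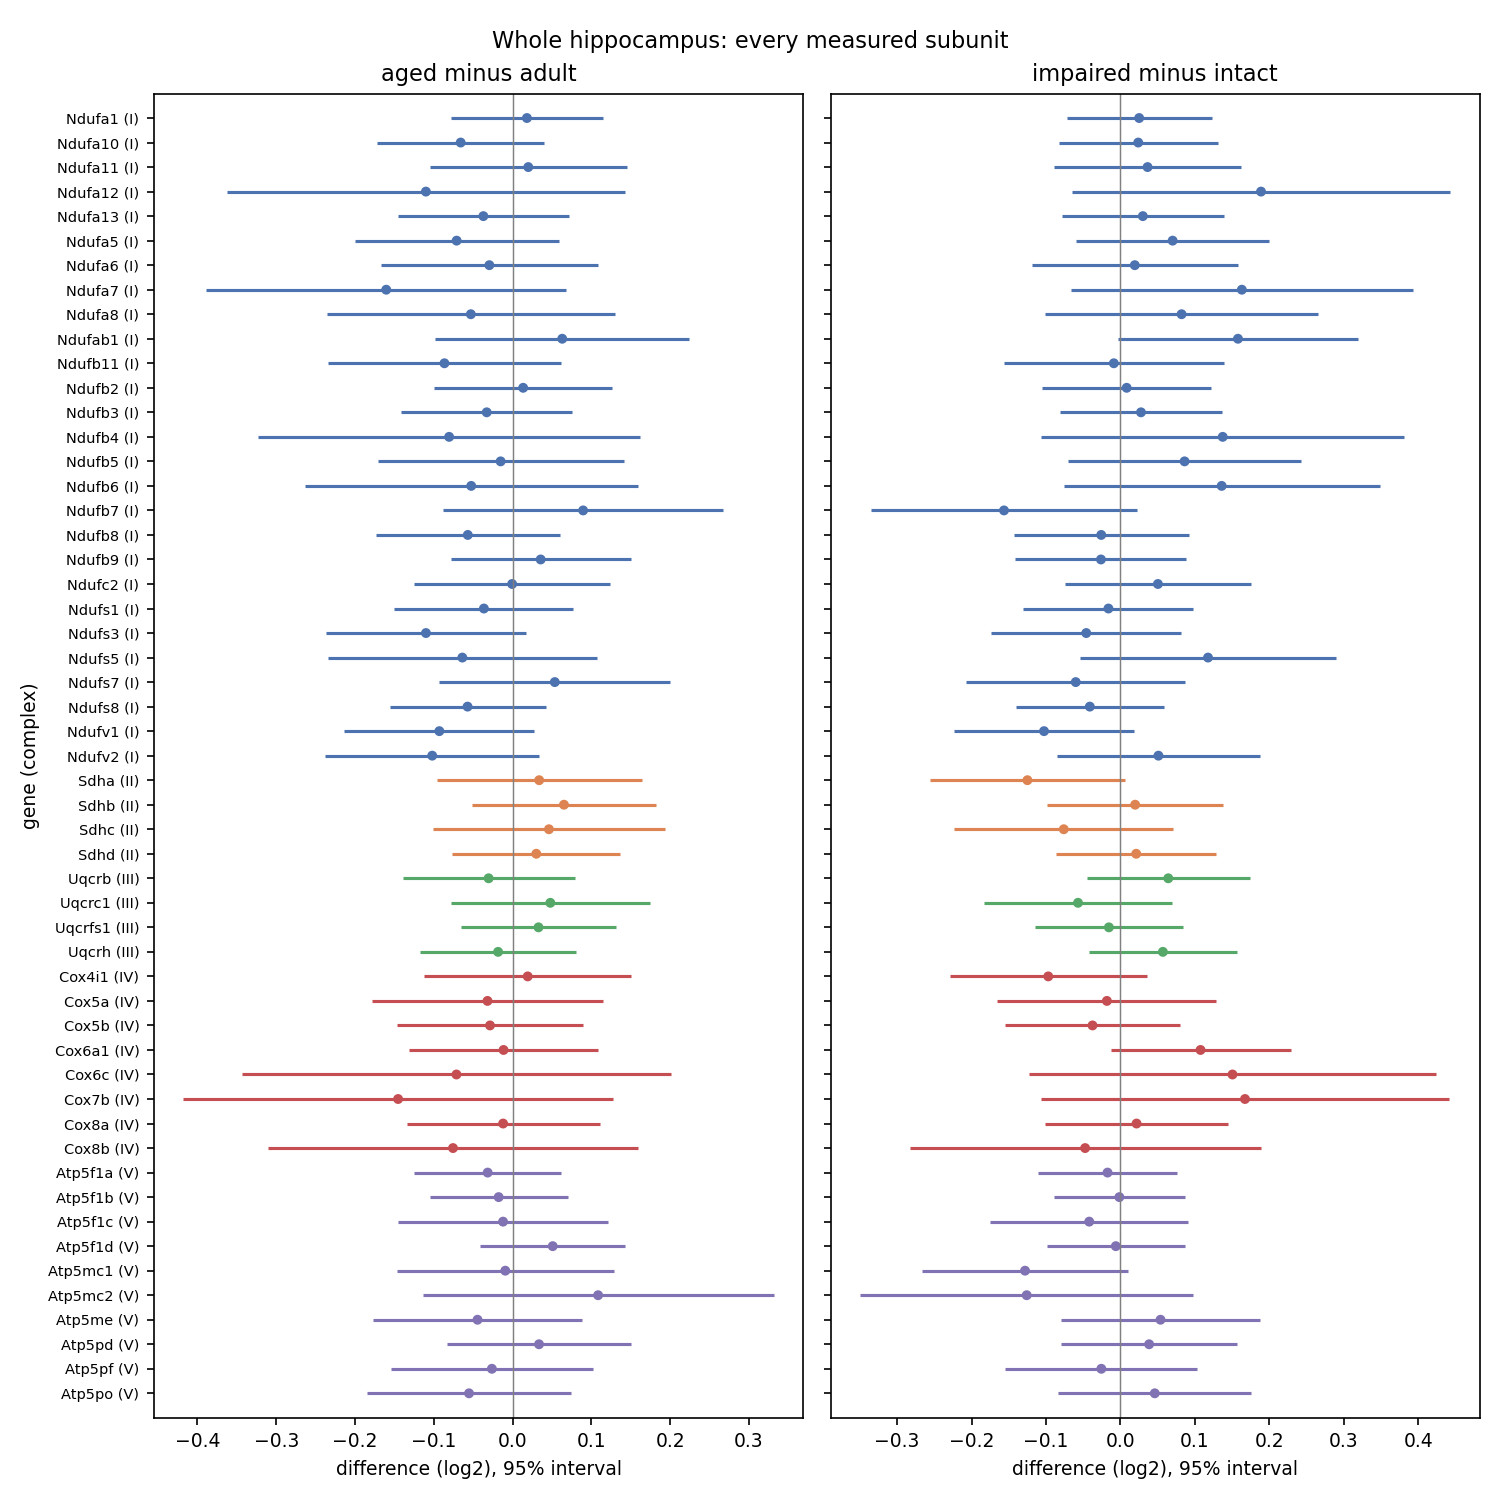
Difference in log2 signal (x axis) with its 95% interval for each of the 53 measured subunits (y axis, complex in brackets and by colour) in whole hippocampus, aged minus adult on the left and impaired minus intact on the right. No subunit passed the adjusted test in either contrast, and the widest interval on the left reached 1.34-fold.

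The same genes were as close to 0 in CA3 and DG. The median over subunits of complexes I to V was 0.01 in CA3 and 0.02 in DG, against 0.00 and 0.02 over all probes. In CA3 the complex medians were 0.02, -0.00, 0.02, 0.01 and -0.02 for complexes I to V, and in DG 0.02, 0.03, 0.01, -0.02 and 0.01. All 59 genes in CA3 and all 58 in DG had aged minus adult intervals within 1.5-fold. The astrocyte gene Gfap, which encodes an intermediate filament, did pass in 2 of the region fits, at 0.68 in CA3 and 0.45 in whole hippocampus. Gfap was the only 1 of the 6 measured astrocyte markers to pass there. No astrocyte marker passed in DG, where 3 of 10152 probes were called. Those calls are for 1 gene with its own spread, and do not show what size of difference would be called for a subunit.

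The smallest age p-value of any subunit belonged to Cox8b in CA3. Cox8b encodes the heart and skeletal muscle form of complex IV subunit VIII, and its signal here lay near the detection limit. The 4 adult arrays read 5.74, 5.67, 5.65 and 5.78, the 4 intact arrays 6.10, 5.87, 5.89 and 5.87, and the 4 impaired arrays 6.10, 5.93, 6.09 and 5.90. All 8 aged arrays lay above all 4 adults, and the probe was detected on 2 of the 4 adult arrays and on every aged array. The difference was 0.26 (SE 0.07, 95% interval 0.11 to 0.41, adjusted p = 0.115 in limma) and did not pass. On the same arrays the log2 of the summed signal of the 6 measured neuronal markers was 15.51 to 15.60 in adults and 15.30 to 15.47 in aged arrays. That of the 6 astrocyte markers was 14.87 to 15.07 in adults and 15.12 to 15.22 in aged arrays. That of the microglial markers was 11.31 to 11.43 and 11.56 to 11.90, with Tmem119 and Cx3cr1 not measured in CA3. Over single markers the median aged minus adult difference in CA3 was -0.10 for neurons, -0.05 for astrocytes and 0.36 for microglia. Only Gfap and C1qa passed among them. The part of these cell types in the Cox8b values was not tested. In whole hippocampus Cox8b differed by -0.08 (interval -0.31 to 0.16).

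Ndufb11, an accessory subunit in the membrane arm of complex I, was the member with the next smallest p in CA3. Its adult arrays read 11.72, 11.74, 11.69 and 11.63, its intact arrays 11.50, 11.42, 11.55 and 11.34, and its impaired arrays 11.32, 11.56, 11.52 and 11.74. One impaired array reached the adult values, and the other 7 aged arrays lay below all adults. The difference was -0.20 (SE 0.08, interval -0.36 to -0.03, adjusted p = 0.265 in limma). In DG the 2 genes with the smallest p were Atp5me, subunit e of the ATP synthase, at 0.19 (interval -0.01 to 0.39), and Atp5mc1 at -0.21 (interval -0.51 to 0.09). Neither excluded 0, and their adult and aged arrays overlapped.

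In CA1 the aged minus adult differences depended on the low array. With all 12 arrays the median was 0.41 for complex I, 0.56 for complex II, 0.14 for complex III, 0.19 for complex IV and 0.14 for complex V, with 42 of 53 subunits above 0 and a median of 0.06 over all probes. Without adult replicate 4 the medians were 0.01, 0.06, 0.02, 0.08 and -0.07, with 30 of 53 above 0 and 0.01 over all probes. Without that array 0 genes passed as well, beside 0.11% of probes, and 4 were higher and 2 lower at an unadjusted p under 0.05 in limma, a limit that 20.2% of all probes passed. Only 18 of 59 genes had intervals within 1.5-fold with all arrays, against 53 of 59 without it. The widest, for Ndufa8, reached 3.89-fold, and the median SE over genes was 0.24 with all arrays and 0.10 without that array.

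**Figure D3:**
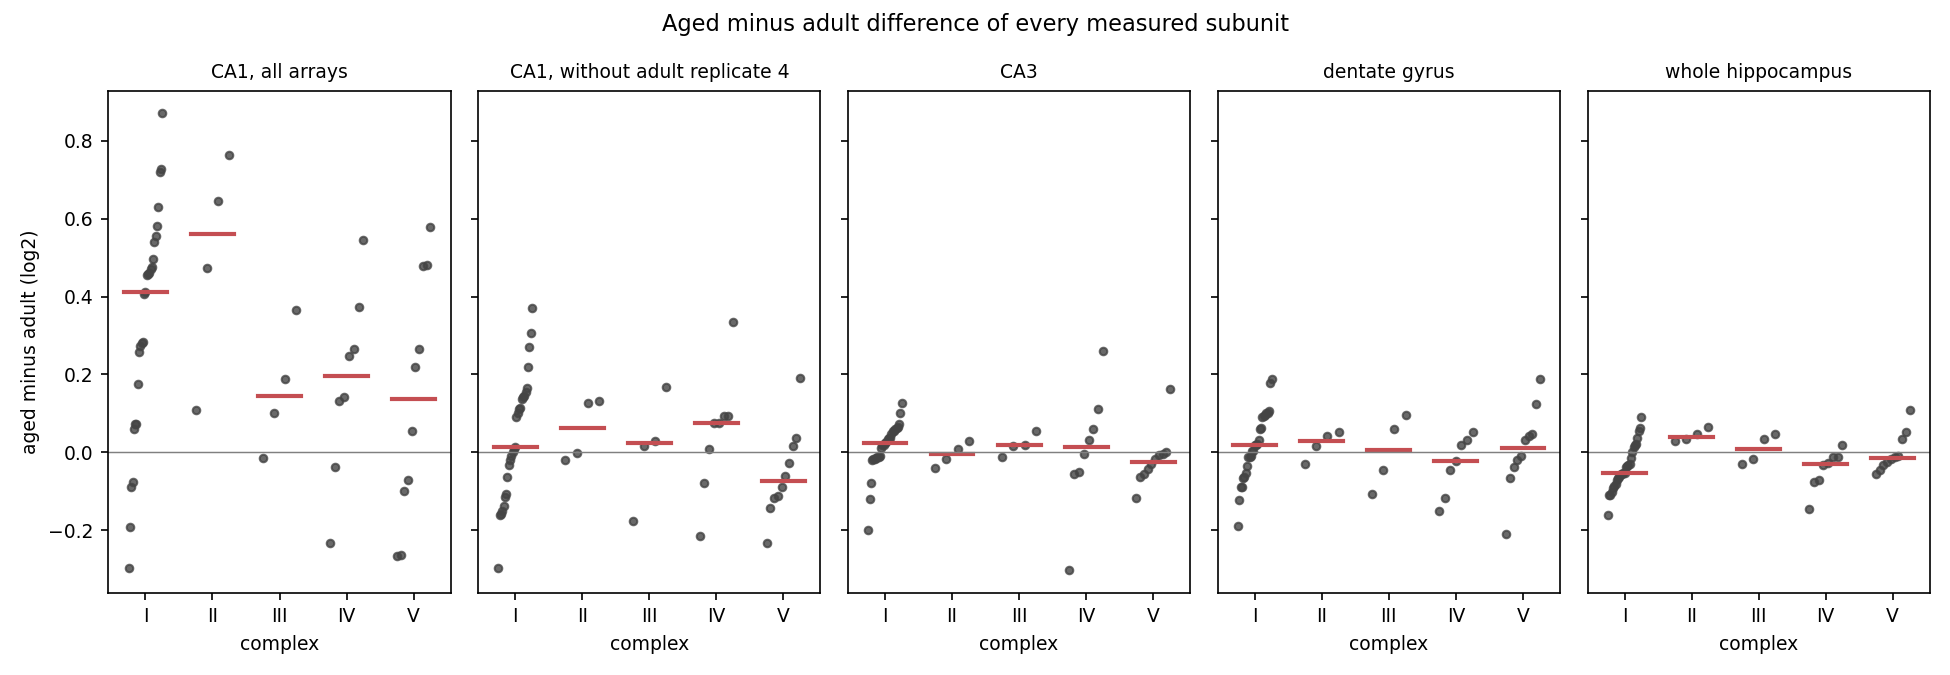
Aged minus adult difference in log2 signal (y axis) of each measured subunit (points) by complex (x axis), with a red bar at the median, in CA1 with all arrays, in CA1 without adult replicate 4, and in CA3, dentate gyrus and whole hippocampus. The upward shift in CA1, with a median of 0.41 for complex I, falls to 0.01 when that array is left out.

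Ndufb4, an accessory subunit of the complex I membrane arm, had the smallest p in CA1. The array lists its probe on chromosome X, whereas RefSeq places the gene on chromosome 11. Its adult arrays read 10.45, 9.80, 10.10 and 9.09, its intact arrays 10.50, 10.52, 10.72 and 10.49, and its impaired arrays 10.49, 10.49, 10.72 and 9.99. All 8 aged arrays lay above the adult mean, and the groups overlapped. The difference was 0.63 (SE 0.23, interval 0.12 to 1.14, adjusted p = 0.63 in limma), and 0.37 (interval 0.04 to 0.71, adjusted p = 0.217) without the low array. A second, dimmer Ndufb4 probe, measured in CA1, gave the opposite sign, -0.35 (SE 0.31, adjusted p = 0.642 in limma). Ndufb7, named with it by rank, differed by 0.50 (interval 0.01 to 0.98), and by 0.27 (interval -0.08 to 0.62) without the low array.

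Without that array other members moved to the front. Ndufb3, an accessory complex I subunit, read 12.07, 12.39 and 12.13 on the 3 remaining adult arrays under the normalization of all arrays. Its intact arrays read 12.02, 12.02, 11.78 and 11.81, and its impaired arrays 11.96, 11.87, 11.72 and 12.01. The 8 aged arrays lay below the 3 adults, at -0.30 (interval -0.53 to -0.07, adjusted p = 0.187 in limma). Members chosen here after their values were seen were Cox5b at 0.33, Emc8 at 0.49, Dmac2 at 0.35 and Atp5f1a at -0.23, none of which passed (adjusted p from 0.191 to 0.238 in limma).

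Intact and impaired rats of the same age were then compared. No member passed in CA1, CA3, DG or whole hippocampus, where 0% of all probes passed in limma, although 33, 500, 196 and 623 probes had an unadjusted p under 0.05. Among members that count was 1 in CA3 and 0 in the other regions. The median over subunits of complexes I to V was -0.06 in CA1, 0.02 in CA3, 0.00 in DG and 0.02 in whole hippocampus, against -0.01, -0.00, 0.01 and 0.01 over all probes. The intervals stayed within 1.5-fold for 59 of 59 genes in CA3, 52 of 58 in DG and 60 of 60 in whole hippocampus. In CA1 they did so for 17 of 59, and for 56 of 59 without the low adult array.

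The member with an unadjusted p under 0.05 was Ndufs3 in CA3. Its intact arrays read 11.46, 11.39, 11.21 and 11.34, and its impaired arrays 11.61, 11.48, 11.46 and 11.61. All 4 impaired arrays lay above the intact mean and the lowest of them lay just under the highest intact array. The difference was 0.19 (SE 0.08, interval 0.03 to 0.35, adjusted p = 0.943 in limma). Dmac2, a complex I assembly gene that is no subunit, was lower in the 4 impaired CA3 arrays than in the 4 intact ones, at -0.17 (interval -0.36 to 0.02, adjusted p = 0.961).

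In whole hippocampus the lead members were Ndufab1 and Sdha. Ndufab1, the mitochondrial acyl carrier protein that is also a complex I subunit, ran from 11.67 to 12.08 with a median of 11.86 in intact arrays and from 11.79 to 12.53 with a median of 11.98 in impaired arrays. Of the 9 impaired arrays 7 lay above the intact mean, and the groups overlapped. The difference was 0.16 (SE 0.08, interval -0.00 to 0.32, adjusted p = 0.642 in limma). Sdha differed by -0.12 (interval -0.26 to 0.01), with 5 of 9 impaired arrays below the intact mean. In DG Ndufs5 differed by 0.35 (interval -0.08 to 0.77) and Ndufa6 by -0.20 (interval -0.46 to 0.07), and in CA1 Cox8b by -0.30 (interval -0.82 to 0.23) and Ndufs5 by -0.31 (interval -0.90 to 0.27). Without the low adult array the CA1 intervals were -0.71 to 0.11 for Cox8b and -0.70 to 0.07 for Ndufs5. All of these intervals include 0.

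Whether the age or impairment difference itself varied between CA1, CA3 and DG was tested with interaction contrasts over the 36 subregion arrays. No member passed either test, beside 0.00939% of 10654 probes for age and 0% for impairment. At an unadjusted p under 0.05 stood 4 of 59 members and 742 probes for age, and 0 members and 106 probes for impairment. Without the low CA1 array 0 members passed either test, and 6 members and 854 probes for age and 1 member and 687 probes for impairment stood at that limit. The smallest age p was that of Ndufb4 (adjusted p = 0.661 in limma), whose aged minus adult difference was 0.53 higher in CA1 than in CA3 and 0.82 higher than in DG. Without the low CA1 array these were 0.27 and 0.56. Ndufaf1, an assembly factor of complex I, followed with an adjusted p of 0.687, and for impairment Ndufs5 and Ndufs3 led, both with an adjusted p of 1.

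The level of the subunits did differ between subregions, by at most 0.60 on the log2 scale apart from Cox8b, for which DG gave only a bound. An F test over CA1, CA3 and DG called 18 of 59 members (30.5%), beside 57.7% of all 10654 probes. Without CA1 adult replicate 4 it called 36 of 59 (61.0%), beside 73.7%, and all 18 were among the 36. By complex the 18 were 6 of 27 in I, 1 of 4 in II, 1 of 4 in III, 3 of 8 in IV, 4 of 10 in V and 3 of the 6 set apart. Without that array the counts were 16, 3, 2, 4, 7 and 4. The members' share was below that of all probes in both fits.

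Between CA3 and DG the called differences ran nearly all one way. In CA3 12 of 59 members were higher than in DG and 1 lower, beside 20% of all probes higher and 19.9% lower. The members' share called higher was thus near that of all probes, and the share called lower was smaller. The median difference was 0.14 for complex I, 0.13 for complex II, 0.11 for complex III, 0.16 for complex IV and 0.14 for complex V, with 46 of 53 subunits above 0 and a median of 0.00 over all probes. Without the low CA1 array 31 were called higher and 3 lower, beside 29.8% and 29.3%, and the complex medians were the same to 2 decimals. The members lower in CA3 than in DG were then Ndufv3, at -0.44, Atp5mc2, a c-ring subunit, at -0.22, and Ndufab1, at -0.14.

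The complex medians in CA1 stood below CA3 and were mixed against DG. In CA1 7 of 59 members were lower than in CA3 and 0 higher, beside 16% of probes lower and 14% higher. The members' share called lower was thus under that of all probes. The medians were -0.19, -0.26, -0.09, -0.06 and -0.17 for complexes I to V, against -0.02 over all probes. Without the low array 14 of 59 were lower and 1 higher, beside 21.6% and 22.1%, a share lower near that of all probes. The medians were then nearer 0, at -0.10, -0.07, -0.05, -0.06 and -0.07, against 0.00 over all probes. All 7 stayed among the calls, and they included 4 complex I genes and 3 subunits of the ATP synthase. Against DG 8 of 59 members were higher in CA1 and 2 lower, beside 20.5% and 24.5% of all probes. Without the low array 14 were higher and 3 lower, beside 26.2% and 28.7%. Each of these member shares was below that of all probes. The sign of the CA1 minus DG difference changed for some members with that array: 47 of 59 kept it, and Sdha went from -0.04 to 0.18 (adjusted p = 0.0219 in limma).

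**Figure D4:**
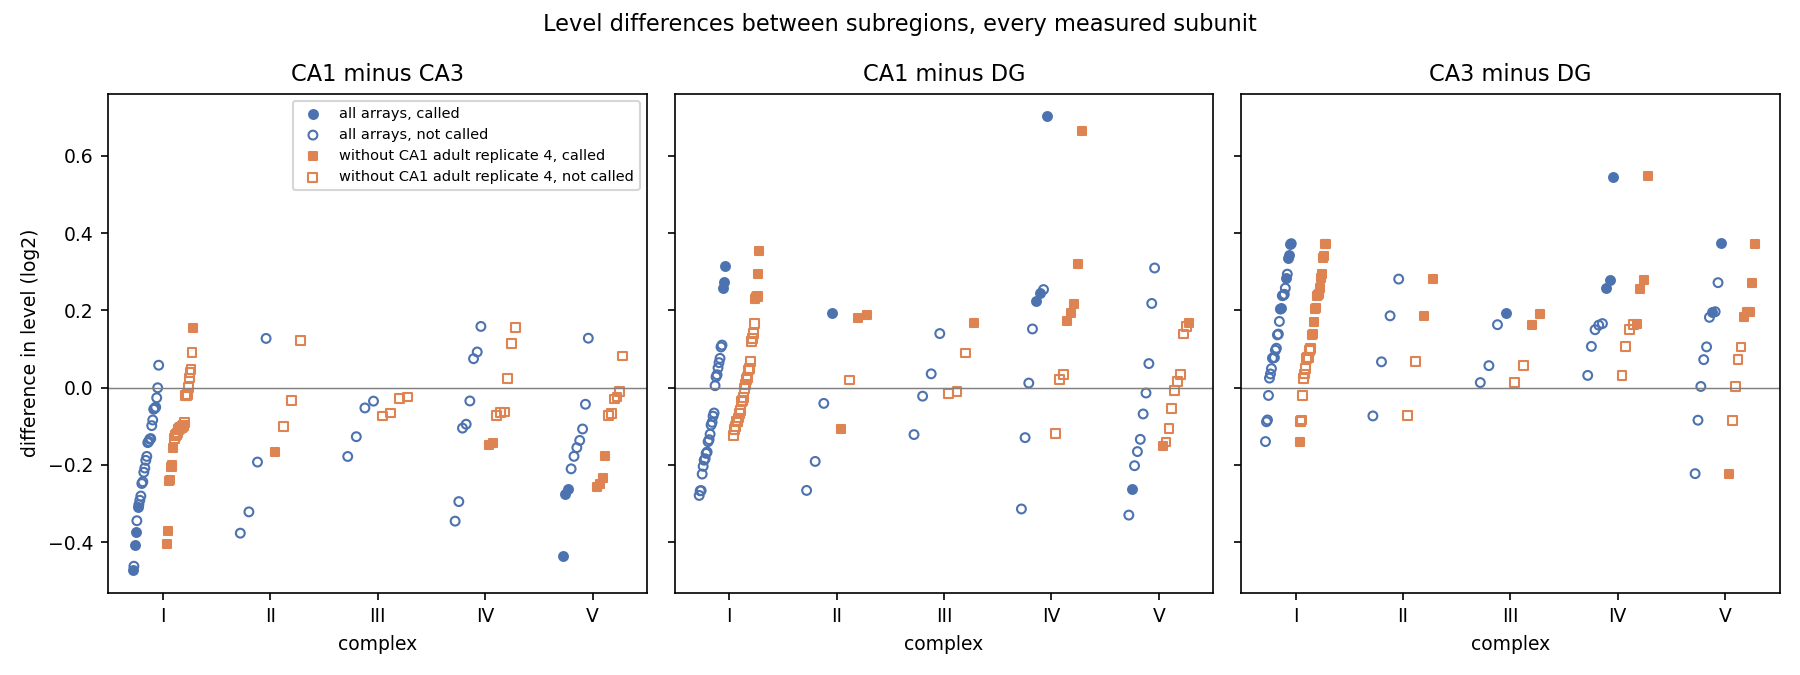
Difference in log2 level between subregions (y axis) of each measured subunit by complex (x axis), with all arrays (circles) and without CA1 adult replicate 4 (squares), filled where called in limma. In the CA3 minus DG panel 46 of 53 subunits lie above 0 in both fits.

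Cell type markers differed between the same samples. All 6 oligodendrocyte markers were higher in CA1 and in CA3 than in DG, with medians of 1.20 and 1.29. The log2 of their summed signal was 14.21 to 14.62 on CA3 arrays and 12.95 to 13.51 on DG arrays. Of the 6 neuronal markers 5 were lower in CA1 than in CA3, with a median of -0.57, and 2 were higher in CA3 than in DG, with a median of 0.29. Without the low array 5 were again lower in CA1 than in CA3 and 1 higher (median -0.53), and 5 were higher and 1 lower in CA3 than in DG. The log2 of the summed signal of the neuronal markers was 13.94 to 15.32 in CA1, 15.30 to 15.60 in CA3 and 14.96 to 15.45 in DG. Microglial sums were 11.31 to 12.17 in CA1, 11.31 to 11.90 in CA3 and 10.81 to 11.45 in DG, and astrocyte sums 15.06 to 15.68, 14.87 to 15.22 and 14.94 to 15.17. The part of these cell types in the subunit levels was not tested.

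In complex I Ndufa10, chosen after its values were seen, was higher in CA3 than in both other subregions. The array lists its probe on chromosome 6, whereas RefSeq places the gene on chromosome 9. Its CA3 arrays read 11.97, 12.22, 12.08 and 12.15 in adults, 12.14, 12.16, 12.32 and 12.06 in intact, and 12.15, 12.13, 12.19 and 12.16 in impaired. Its DG arrays ran from 11.62 to 11.97 and its CA1 arrays from 11.53 to 11.93 apart from adult replicate 4. The lowest CA3 array lay just under the highest DG array, and all CA3 arrays lay above the 11 other CA1 arrays. Ndufa10 was lower in CA1 than in CA3 by -0.31 (SE 0.09, adjusted p = 0.0109 in limma), or -0.40 (adjusted p = 1.43e-07) without the low array, and higher in CA3 than in DG by 0.34 (adjusted p = 0.0038).

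Ndufb9 and Ndufa7, accessory subunits of complex I, led its F test. Ndufb9 averaged 13.28 ± 0.16 (SD, n = 12) in CA1, 13.36 ± 0.05 (n = 12) in CA3 and 13.02 ± 0.18 (n = 12) in DG, and 13.17 ± 0.10 (n = 24) in whole hippocampus. It was higher than in DG by 0.34 in CA3 and 0.26 in CA1 (adjusted p = 0.00016 and 0.003 in limma), while CA1 and CA3 did not differ beyond their spread, at -0.08 (SE 0.07). Without the low array it was higher in CA1 than in DG by 0.23. Ndufa7 averaged 8.94 ± 0.38 in CA1, 9.41 ± 0.11 in CA3 and 9.12 ± 0.15 in DG, and was lower in CA1 than in CA3 by -0.47 with all arrays and by -0.37 without the low one. Ndufa1, a further accessory subunit, was higher in CA3 than in DG by 0.37 (adjusted p = 0.00106). Ndufa1 and Ndufs8 were also chosen after their values were seen. The core subunits Ndufs1 and Ndufs8 were lower in CA1 than in CA3, by -0.37 and -0.41 with all arrays and by -0.24 each without the low one.

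In complexes II and III, with 4 members each, 1 member of each was called. Sdhc, a membrane anchor of complex II, was higher in CA1 than in DG by 0.19 in both fits (adjusted p = 0.0136 in limma with all arrays), with CA1 arrays from 12.16 to 12.59 and DG arrays from 12.03 to 12.40. Sdhb was not called with all arrays and differed by -0.17 between CA1 and CA3 and by 0.19 between CA3 and DG without the low one (adjusted p = 0.0108 and 0.00247). Uqcrh, the hinge protein of complex III, was higher in CA3 than in DG by 0.19 (adjusted p = 0.015), with CA3 arrays from 13.39 to 13.60 and DG arrays from 13.10 to 13.61. Uqcrfs1 differed between them by 0.16 in both fits, with an adjusted p of 0.052 with all arrays and 0.00362 without the low one. Cyc1, the cytochrome c1 subunit of complex III that the symbol rule does not take, was lower in CA1 than in CA3 by -0.26, and by -0.22 without the low array.

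In complex IV Cox8b was near or below detection in DG. Its log2 signal averaged 6.04 ± 0.33 (SD, n = 12) in CA1, 5.88 ± 0.16 (n = 12) in CA3, 5.34 ± 0.25 (n = 12) in DG and 5.94 ± 0.24 (n = 24) in whole hippocampus. On DG it read 5.06, 5.36, 5.12 and 5.82 in adults, 5.32, 5.14, 5.82 and 5.15 in intact, and 5.28, 5.23, 5.46 and 5.29 in impaired, and was detected on 2 of the 12 arrays. The other DG arrays therefore read at or near background and give only a bound, and in the impaired group none was detected. Each DG array was set at the higher of its own value and its lowest detected signal, with CA1 and CA3 left as measured. Cox8b was then 1.24-fold higher in CA1, or 1.21-fold without the low array, and 1.12-fold higher in CA3. Some CA1 and CA3 arrays were also undetected, so these folds are approximate. Cox8b entered the fit through CA1 and CA3, and its DG readings lay near background. The adjusted p-values on the measured values, 2.06e-06 for CA1 and 9.28e-05 for CA3 in limma, therefore do not test its level against DG. The fitted differences behind these p-values moved from 0.70 and 0.54 to 0.41 and 0.31 with no background correction. CA1 and CA3 differed by 0.16 (SE 0.11, adjusted p = 0.258). Cox8a, the form found in most tissues, averaged 12.70 ± 0.23 in CA1, 12.62 ± 0.15 in CA3 and 12.47 ± 0.20 in DG, and differed between CA1 and DG by 0.22 (adjusted p = 0.0328) without a call in its F test (adjusted p = 0.0659). That difference was 0.17 without the low array, and leaving out any of 5 other single arrays ended the call (adjusted p from 0.0523 to 0.0707). Cox6a1 was higher in CA3 than in DG by 0.26 (adjusted p = 0.00176). Cox4i1 was not called for any pair, with 12.98 ± 0.13 in CA1, 13.08 ± 0.07 in CA3 and 12.97 ± 0.16 in DG.

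**Figure D5:**
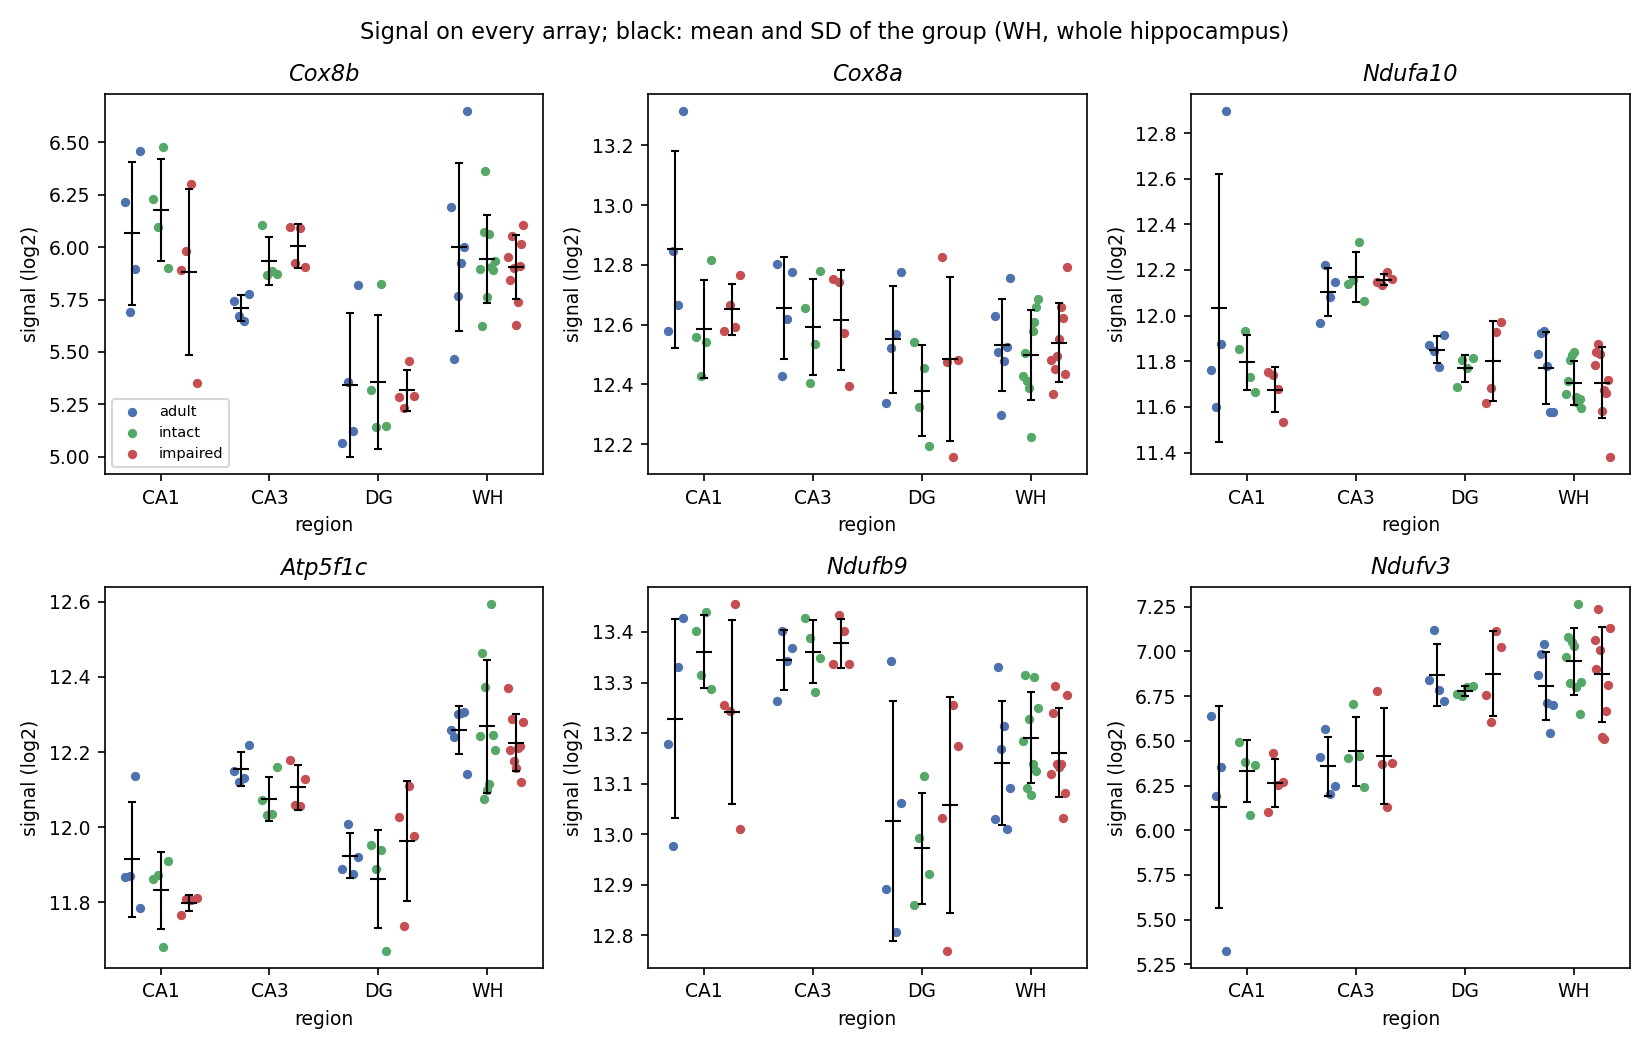
Log2 signal (y axis) of 6 genes on every array (points, coloured by group) in CA1, CA3, DG and whole hippocampus (x axis), with the mean and SD of each group in black. Cox8b reads lowest in DG, where it was detected on 2 of 12 arrays and gives only a bound, and Ndufv3 is higher in DG than in CA1 and CA3.

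Most measured subunits of the ATP synthase also read highest in CA3. Atp5f1c, the gamma subunit that turns inside the catalytic head, read 12.15, 12.12, 12.13 and 12.22 in adult CA3, 12.07, 12.03, 12.04 and 12.16 in intact, and 12.18, 12.06, 12.06 and 12.13 in impaired. Its CA1 arrays ran from 11.68 to 12.14 and its DG arrays from 11.67 to 12.11, so that 1 array of CA1 and 1 of DG reached the CA3 values. It was lower in CA1 than in CA3 by -0.26 (SE 0.05) and higher in CA3 than in DG by 0.20 (adjusted p = 0.00038 and 0.00445 in limma), and the first was -0.25 without the low array. Atp5mc1 was higher in CA3 than in DG by 0.37 (adjusted p = 0.00292). Atp5f1b did not read highest in CA3, where it differed from DG by -0.08. It was lower in CA1 than in DG by -0.26 with all arrays (adjusted p = 0.0351 in limma). Without the low array this was -0.15 (adjusted p = 0.0121 in limma). Leaving out any of 8 other single arrays ended the CA1 minus DG call (adjusted p from 0.0501 to 0.0615 in limma).

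Among the 6 measured genes kept apart, Ndufv3, Ndufaf1 and Emc8 were called, and they were singled out after their values were seen or by the interaction rule. Ndufv3 averaged 6.24 ± 0.33 in CA1, 6.40 ± 0.20 in CA3 and 6.84 ± 0.16 in DG, and was lower than in DG by -0.60 in CA1 and -0.44 in CA3 (adjusted p = 2.43e-05 and 0.00118 in limma), with -0.51 in CA1 without the low array. Ndufaf1 was higher in CA3 than in DG by 0.50 (adjusted p = 0.00118). Emc8, a subunit of an endoplasmic reticulum membrane complex, was higher in CA1 than in DG by 0.52 (adjusted p = 0.00298), and by 0.44 without the low array.

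Genes of neighbouring pathways were read in the same fits, from fixed lists. No listed gene of the tricarboxylic acid cycle, glycolysis, assembly factors, biogenesis regulators or membranes and import passed the age or the impairment test in any region. Between subregions 9 of 14 glycolysis genes were lower in CA1 than in CA3 (median -0.46), as were 6 of 14 of the tricarboxylic acid cycle (-0.35), 7 of 19 of membranes and import (-0.26) and 6 of 20 of the electron carrier and assembly factors (-0.11), beside 16% of all probes. Without the low array the counts were 11, 9, 8 and 7 with medians of -0.40, -0.24, -0.13 and -0.14, beside 21.6%. Of the 15 measured biogenesis regulators 8 were lower in CA1 than in DG (-0.34), beside 24.5% of all probes, and 9 were lower and 1 higher without the low array (-0.16), beside 28.7%. Between CA3 and DG 4 of 14 glycolysis and 3 of 14 tricarboxylic acid cycle genes were higher in CA3 and 0 lower. Without the low array 9 glycolysis genes were higher and 1 lower, and 5 tricarboxylic acid cycle genes higher. Of the 15 biogenesis regulators 1 was higher and 2 were lower in CA3 (median -0.11), and 2 were higher and 6 lower without the low array. The shares of all probes were 20% higher and 19.9% lower in CA3, and 29.8% and 29.3% without the low array.

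Promoters of the members were also examined for short motifs. RefSeq windows on GRCr8, from 250 bases before to 50 after the start, were held for 57 of the 65 members. Each was searched on both strands for GCGCATGC, a core of NRF1 sites, CCGGAAG, a core of ETS family sites such as those of GABP, and AAGATGG, a core of YY1 sites. A match is a description and not a bound site. At least 1 motif stood in 27 of the 57 windows (47.4%), against 16.8% of all 33469 windows and 19.3% of the 21842 of protein-coding genes. NRF1 letters stood in 8 of the 57 members and 2.47% of all windows, ETS letters in 29.8% and 8.75%, and YY1 letters in 19.3% and 7.01%. The members' windows had a median GC content of 57.7%, against 51.7% for all windows and 55% for those of protein-coding genes. A motif stood in 8 of the 16 members with a window that were called between subregions (50%), and in 16 of the 36 that were not called (44.4%).

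The windows of Cox8b, Cox8a and Cox4i1 are printed to set the dim muscle form beside its ubiquitous counterpart and the best-known nuclear subunit of complex IV. Capitals mark matches, all of them on the strand opposite to the one printed, so that CTTCCGG stands for the ETS core and CCATCTT for the YY1 core. The Cox8b window is chr1:205408224-205408523 on the minus strand, that of Cox8a chr1:213833574-213833873 on the minus strand, and that of Cox4i1 chr19:65630133-65630432 on the plus strand.
Cox8b: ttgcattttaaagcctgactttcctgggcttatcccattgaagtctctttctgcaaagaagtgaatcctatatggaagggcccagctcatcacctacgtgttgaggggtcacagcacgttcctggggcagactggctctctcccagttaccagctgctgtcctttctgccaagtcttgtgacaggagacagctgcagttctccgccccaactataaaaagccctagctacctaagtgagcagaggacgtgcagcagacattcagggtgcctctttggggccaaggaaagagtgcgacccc
Cox8a: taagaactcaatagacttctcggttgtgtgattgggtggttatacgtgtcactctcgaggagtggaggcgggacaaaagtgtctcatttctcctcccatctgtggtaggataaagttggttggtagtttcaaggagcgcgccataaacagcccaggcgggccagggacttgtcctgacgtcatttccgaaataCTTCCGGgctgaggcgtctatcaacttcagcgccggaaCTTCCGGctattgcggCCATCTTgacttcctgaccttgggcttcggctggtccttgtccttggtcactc
Cox4i1: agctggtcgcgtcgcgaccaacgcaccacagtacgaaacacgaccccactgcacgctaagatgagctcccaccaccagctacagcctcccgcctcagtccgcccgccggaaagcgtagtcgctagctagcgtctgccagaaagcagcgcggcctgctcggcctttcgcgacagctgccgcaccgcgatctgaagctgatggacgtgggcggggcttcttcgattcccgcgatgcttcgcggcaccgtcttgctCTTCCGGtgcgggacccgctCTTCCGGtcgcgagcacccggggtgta
The Cox8b window held none of the 3 motifs, which says only that these letters are not in this window. The Cox8a window held 2 ETS cores and 1 YY1 core, the first of them beginning at base -57 from the start, and the Cox4i1 window 2 ETS cores just after it. None of these matches overlaps another. The window of Emc8, whose transcript runs the other way, shares 247 bases with that of Cox4i1. Over the same arrays Emc8 was higher in CA1 than in DG by 0.52, and Cox4i1 differed by 0.01 (SE 0.06).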

How the data were processed

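Total RNA was labelled as biotin cRNA and read on Illumina rat bead arrays, 60 arrays on 5 slides, per the labels' protocols. Per the file headers, the deposited non-normalized table holds an average signal intensity and a detection p-value per probe and array. The deposited processed table holds intensity values that are, on each array, a linear function of the non-normalized signal with the same mean on all arrays. The software that made either table is not given in the sources used here.

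The non-normalized intensities were background-corrected and quantile-normalized over all 60 arrays together with neqc (limma 3.58.1 in R 4.3.3, offset 16) and tested region by region with lmFit and eBayes, with the slide as a term in whole hippocampus. The 22523 probes exclude 3174 lines with no probe or value. Adjustment was over all probes detected (p under 0.01) on 4 or more arrays of the region, or, between subregions, in 1 fit over 36 arrays. Symbols were updated through RefSeq for 18 of 65 genes. For 61 of the 66 member probes the chromosome listed on the array was that of the gene in RefSeq on GRCr8. Those that differed included the probes of Ndufa10 (listed on 6, gene on 9), Ndufb4 (X and 11) and Atp5pd (5 and 10). The number of arrays limits the precision. Fits were tested on simulated data.

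Genes were named by rule: in each region and contrast the members past the threshold or else the 2 with the smallest p, the 2 of each complex with the smallest p between subregions, the 2 leading each interaction, a fixed set of core subunits, the brightest and dimmest of each complex, and genes whose probes disagree. Members and lists were chosen with earlier results of these data known. Alternatives were the processed values, other normalizations and filters, slide terms, replicate blocks, 1 fit over all arrays, and arrays left out.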

Additional observations from a re-analysis of the deposited data

Results flagged for a closer look

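In each group of 4 to 10 arrays, the highest or lowest value was compared with its nearest neighbour by Dixon's criterion, which chance passes in about 1 in 20 groups. It was passed in 44 of 456 groups (9.65%), 12 of the 84 groups of complex scores and 32 of the 372 groups of single genes. A complex score is the median deviation of its subunits from the region mean (log2).

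Adult replicate 4 of CA1 accounted for 5 of the scores and 12 of the genes. Its scores were -1.36 for complex I, -1.19 for complexes I to V together, -2.07 for complex II, -0.40 for complex III and -1.03 for complex V. Its log2 signals past the limit were 9.31 for Ndufb11, 11.45 for Atp5me, 9.52 for Ndufab1, 8.30 for Sdha, 7.84 for Ndufa7, 8.77 for Sdhb, 11.71 for Uqcrfs1, 9.26 for Ndufaf1, 9.88 for Uqcrc1, 9.79 for Cox5a, 12.45 for Atp5f1a and 12.53 for Atp5f1b. It was also the array with 22.2% of probes detected.

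Impaired replicate 9 of whole hippocampus stood above its group, with scores of 0.20 for complex I, 0.18 for complexes I to V together, 0.19 for complex II and 0.25 for the genes set apart and log2 signals of 11.66 for Ndufb7 and 11.98 for Sdhb. The remaining scores were 0.029 for complex I on CA3 intact replicate 1, 0.23 for complex II on CA1 impaired replicate 4 and 0.14 for complex IV on CA1 intact replicate 1. In CA1 the other log2 signals past the limit were 10.72 for Ndufb4 on intact replicate 3, 11.05 for Ndufs3 on impaired replicate 4 and 11.77 for Atp5f1c on impaired replicate 1. In CA3 the other log2 signals past the limit were 6.10 for Cox8b on intact replicate 1, 12.75 for Ndufs5 on intact replicate 4, 9.77 for Dmac2 on intact replicate 1, 12.23 for Uqcrfs1 on adult replicate 1, 11.24 for Ndufs1 on intact replicate 4, 11.18 for Uqcrc1 on impaired replicate 2, 11.97 for Cox5a on adult replicate 2 and 12.07 for Cox5a on intact replicate 1. In DG the other log2 signals past the limit were 11.66 for Ndufb11 on intact replicate 3, 12.28 for Ndufa6 on impaired replicate 1, 10.32 for Sdha on adult replicate 4, 13.66 for Cox6a1 on intact replicate 2 and 11.06 for Ndufs1 on adult replicate 3. In whole hippocampus the other log2 signals past the limit were 12.27 for Ndufa6 on intact replicate 6 and 12.20 for Sdhc on adult replicate 2.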

How the results depend on the processing

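The count of members called for age or impairment was 0 under every alternative run, with 1 exception: 1 fit over all arrays called 19 in CA1 for age, 18 higher and 1 lower, beside 18.7% of all probes. That fit shares 1 estimate of the spread between regions and keeps CA1 adult replicate 4. It was not run without that array. The count called between subregions was 36 without arrays under 30% detected, and ran from 16 to 36 when each array was left out in turn, reaching 36 without CA1 adult replicate 4. Sdha between CA1 and DG turned from -0.04 to 0.18 without arrays under 30% detected and likewise to 0.18 without CA1 adult replicate 4, with a range from -0.12 to 0.18 over arrays left out. The median of the CA1 aged minus adult differences ran from 0.01 to 0.42 over arrays left out, and that of whole hippocampus from -0.03 to -0.01. With the processed values it was 0.51 in CA1, where the median of all probes was 0.33, and with array weights it was 0.03. Whether replicate numbers pair the samples is not known. Same-numbered arrays correlated from -0.60 to 0.50 in their deviations. Across subregions their median was 0.12, against -0.02 for other pairs, and in whole hippocampus 0.15 against -0.01. Within CA1, CA3 and DG the medians were -0.06, 0.06 and -0.17, against 0.01, -0.09 and 0.03. These correlations do not settle the pairing. With a replicate block 19 members were called between subregions against 18, 0 in the other contrasts, and the CA1 age median stayed at 0.27. Genes near background, Cox8b above all in DG, are limited by signal over background.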
